A study of Bos taurus and Bos indicus with 6 samples.

Results

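Genes that decide whether a leukocyte lives or dies by apoptosis were followed in circulating white blood cells of tick-infested cattle: CFLAR, FADD, FAS, BCL2, BCL2L1, MCL1 and BAX. They were represented by 15 of 24016 probe sets, which are told apart below by gene and by their order in the plot of values by animal, and by 7 of 9155 genes with a single symbol in the platform annotation. CASP8 and BID belong to the same set of 9 genes but were not analysed here, since no probe set was matched to their symbols. The genes were chosen by name, with the breed differences of these same arrays already known. Their breed differences are therefore given as a description and not as a test.

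Total RNA came from female calves 6 months old, 3 Holstein (annotated as Bos taurus) and 3 Brahman (annotated as Bos indicus). All 6 animals were under repeated, heavy challenge with the cattle tick Rhipicephalus microplus, and uninfested animals were not analysed here. White cells were what remained of jugular blood after red cell lysis, with no sorting, so a change in the number of cells of a type and a change in RNA per cell cannot be told apart. Each animal's RNA was hybridised to its own Affymetrix bovine array, which gives 1 log2 value per probe set, a group of short probes for a transcript. The replicates are different animals.

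In the extrinsic pathway, a death receptor such as FAS recruits the adaptor FADD, which gathers caspase-8 and starts the protease cascade. CFLAR, also called c-FLIP, resembles caspase-8 but lacks its protease activity, and it occupies the same complex and limits caspase-8 activation. In the intrinsic pathway, BAX opens the mitochondrial outer membrane, and BCL2, BCL2L1 (BCL-xL) and MCL1 restrain it, while BID links both pathways once caspase-8 has cut it. In blood, BCL2 is known as a survival factor of resting lymphocytes and MCL1 as a short-lived survival protein on which neutrophils depend.

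Brahman leukocytes gave more signal for CFLAR on all 3 of its probe sets and for BCL2 on 4 of 5. The breeds did not overlap on 6 of those probe sets, 3 of each gene, and there Brahman was 1.21 to 1.52-fold higher. With the level of the hybridisation spike-in controls as covariate, the second BCL2 probe set differed by -0.05 and the third by 0.05. The BCL2 differences thus depended on that setting, while the CFLAR differences kept their sign in it. FAS, MCL1 and BAX averaged less signal in Brahman, but the breeds overlapped and the signs of these differences were not settled. BCL2L1 was nearly level, and the 3 probe sets of FADD went both ways. Of the 15 probe sets, 6 were higher and 1 was lower without overlap, while over all probe sets 11.7% were higher and 8.37% lower without overlap. The 1 lower probe set became 2 when Holstein 3, Brahman 1 or Brahman 3 was left out. Limma called 0 of the 15 at an adjusted p under 0.05, against 0.137% of all probe sets. At an unadjusted p under 0.05 there were 6, all higher, where 7.12% of all probe sets were higher and 6.47% lower. Because the same contrast led to the choice of these genes, no inference is drawn from these counts. The median difference of the 15 was 0.16, beside 0.02 over all probe sets.

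**Figure D1:**
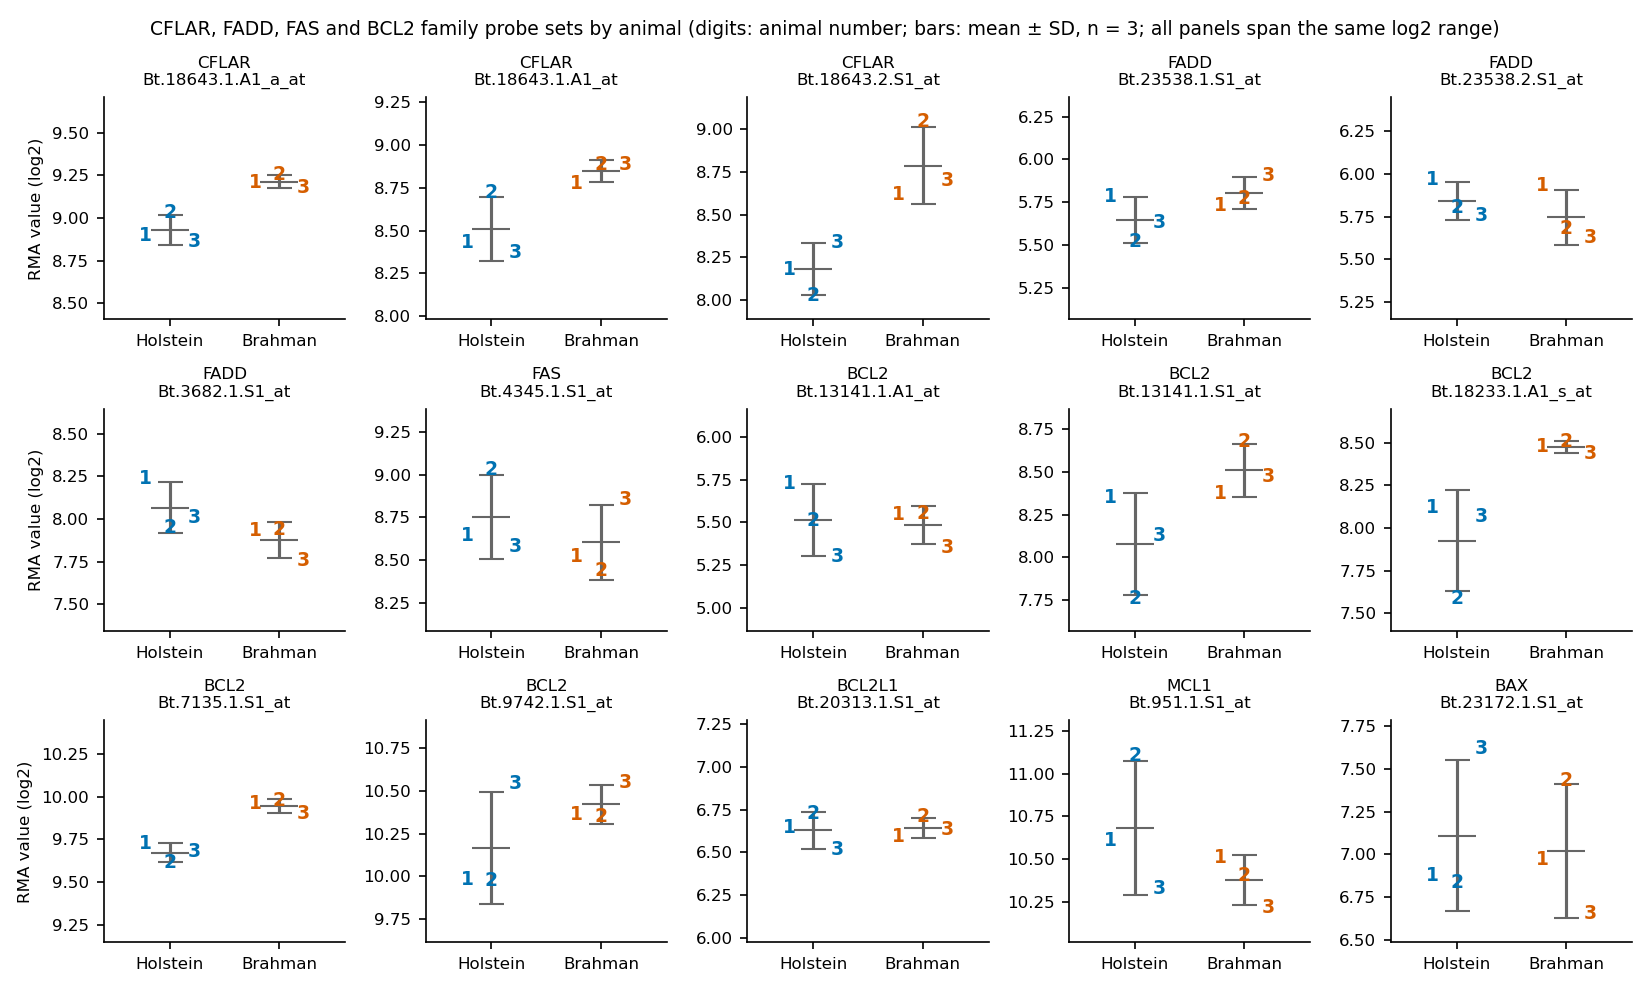
RMA values (log2, vertical axis) of the 15 probe sets of CFLAR, FADD, FAS, BCL2, BCL2L1, MCL1 and BAX in 3 Holstein and 3 Brahman animals. Digits are the animals, horizontal bars the means and whiskers the SD. The Brahman animals lie above all Holstein animals on every CFLAR panel and on 3 of the 5 BCL2 panels.

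CFLAR, the caspase-8 inhibitor, was measured by 3 probe sets, of which the first and the second derive from the same source transcript in the annotation. The third CFLAR probe set read 8.18, 8.03 and 8.33 in Holstein 1, 2 and 3 and 8.62, 9.05 and 8.70 in Brahman 1, 2 and 3. Every Brahman animal was above every Holstein animal, with a gap of 0.28 between the nearest pair. The means were 8.18 ± 0.15 in Holstein and 8.79 ± 0.23 in Brahman (SD, n = 3 each), a difference of 0.61 (SE 0.14) or 1.52-fold.

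The other two CFLAR probe sets gave smaller differences of the same sign. The first read 8.90, 9.03 and 8.86 in Holstein and 9.21, 9.25 and 9.18 in Brahman, a difference of 0.28 (SE 0.09). The second read 8.43, 8.72 and 8.37 in Holstein and 8.77, 8.89 and 8.89 in Brahman, a difference of 0.34 (SE 0.12). The breeds were separate on both, but on the second only by 0.05, between Holstein 2 and Brahman 1.

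The CFLAR probe sets did not order the Holstein animals alike. Holstein 2 was the highest Holstein animal on the first and the second probe set and the lowest on the third. Brahman 2 was the highest animal on all 3. The CFLAR differences kept their sign in every alternative that was run. For most alternatives this was fixed in advance. Leaving out an array cannot change the sign where the breeds are separate, and some settings leave the difference as it is. With each array left out in turn the CFLAR differences ranged from 0.25 to 0.33, from 0.27 to 0.45 and from 0.48 to 0.69, for the first, the second and the third probe set.

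FAS, the death receptor that FASLG engages, showed no separation of the breeds. Its only probe set read 8.64, 9.03 and 8.58 in Holstein and 8.52, 8.44 and 8.85 in Brahman. Holstein 2 and Brahman 3 were the high animals, and the difference of -0.15 (SE 0.16) was smaller than the SD within either breed (0.25 and 0.22). Without Holstein 2 the FAS difference was -0.01, and with the level of the hybridisation spike-in controls as covariate it was 0.33, so its sign is not settled.

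FADD, the adaptor between death receptors and caspase-8, had 3 probe sets that disagreed in sign. The third read 8.23, 7.95 and 8.01 in Holstein and 7.94, 7.94 and 7.76 in Brahman, lower by 0.19 on average (difference -0.19, SE 0.11). The breeds were separate here by no more than 0.02, between Holstein 2 and Brahman 2, and they overlapped once the arrays were quantile-normalised again. The other FADD probe sets differed by 0.16 (SE 0.10, the first) and -0.10 (SE 0.11, the second), with overlap. In the fit with the spike-in covariate the FADD differences were -0.01, -0.30 and -0.47 for the first, the second and the third probe set. The means of the first and the second were between 5.65 and 5.84 in both breeds, not far above the lower quartile of all probe set means (5.08), and detection calls were not used here.

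BCL2, the lymphocyte survival factor, was measured by 5 probe sets. On the third BCL2 probe set Holstein read 8.12, 7.59 and 8.07 and Brahman 8.48, 8.51 and 8.43. The Brahman animals lay close together, and the lowest of them was 0.31 above the highest Holstein animal. The difference was 0.55 (SE 0.15) or 1.46-fold. Its identifier carries the suffix that marks a probe set able to match other transcripts too.

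The fourth and the second BCL2 probe set also separated the breeds. The fourth read 9.72, 9.62 and 9.68 in Holstein and 9.96, 9.98 and 9.90 in Brahman, a difference of 0.27 (SE 0.08). Its pooled within-breed SD of 0.05 was lower than that of all but 3.08% of probe sets, so a 1.21-fold difference exceeded the spread between animals. The second read 8.35, 7.76 and 8.13 in Holstein and 8.37, 8.68 and 8.47 in Brahman, a difference of 0.43 (SE 0.16). There Holstein 1 came within 0.02 of Brahman 1, and Holstein 2 was far below the rest.

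The fifth and the first BCL2 probe set overlapped between the breeds. The fifth read 9.98, 9.97 and 10.55 in Holstein and 10.36, 10.35 and 10.55 in Brahman, a difference of 0.26 (SE 0.17). Holstein 3 stood with the highest Brahman animal, and without Holstein 3 the difference was 0.44. The first averaged 5.51 in Holstein and 5.48 in Brahman (difference -0.03, SE 0.13), a level near the lower quartile of all probe sets. Holstein 2 was the lowest animal on the 4 other BCL2 probe sets.

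**Figure D2:**
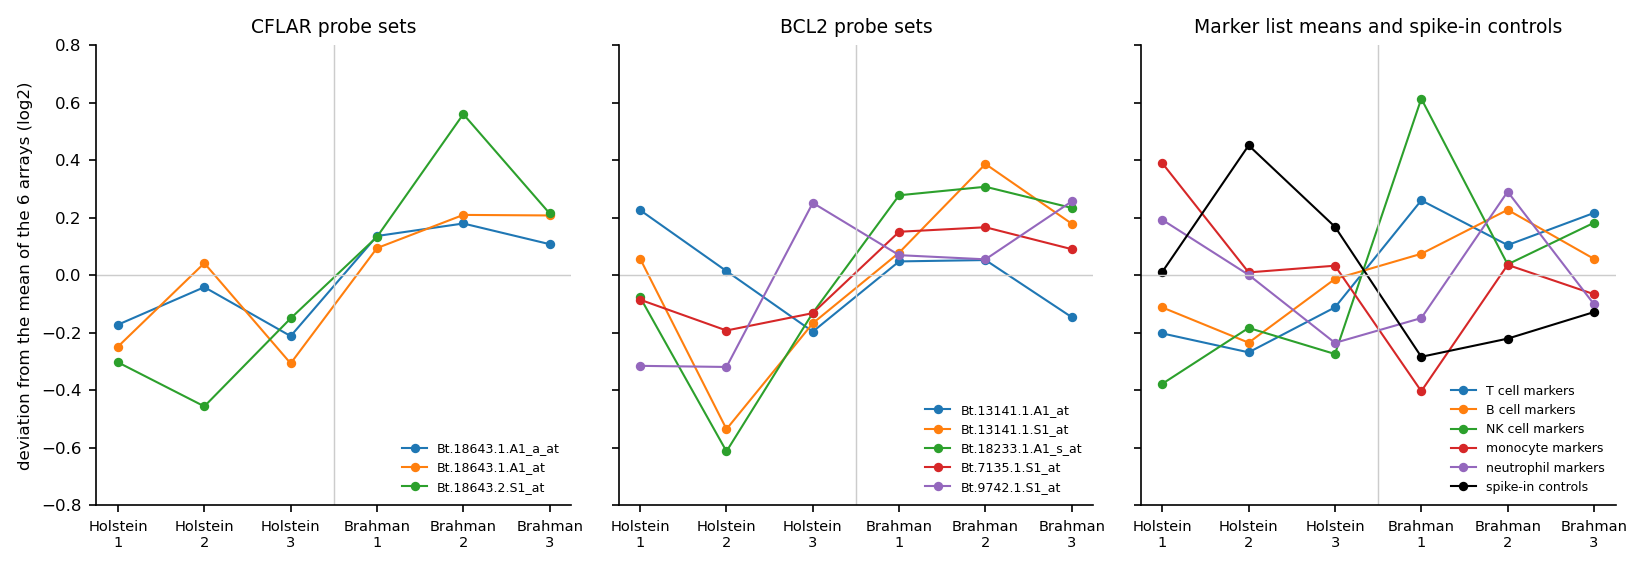
Deviation of each array from the mean of the 6 arrays (log2, vertical axis) for CFLAR probe sets, BCL2 probe sets, and marker list means with spike-in controls. Each line is 1 probe set, list or control mean across Holstein 1 to 3 and Brahman 1 to 3. On 4 of the 5 BCL2 probe sets the lowest array is Holstein 2, the array with the highest spike-in level (10.38).

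The spike-in controls, RNAs of known amount added to each hybridisation, also differed between the breeds. Their mean was 9.94, 10.38 and 10.10 on the Holstein arrays and 9.64, 9.71 and 9.80 on the Brahman arrays, with no overlap. Once limma was given that level as a covariate, the third BCL2 probe set differed by 0.05 instead of 0.55, the second by -0.05 instead of 0.43 and the fourth by 0.16 instead of 0.27. The fifth differed by 0.22 instead of 0.26 and the first by -0.22 instead of -0.03. CFLAR differed by 0.40, 0.65 and 0.45 on the first, the second and the third probe set in that fit. Because the controls do not overlap between the breeds, breed and spike-in level cannot be told apart.

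The mean levels of the lymphocyte marker lists were also higher in Brahman, although their genes did not all go that way. The mean log2 level of 11 T cell markers (of 12 listed) was 9.54 to 9.70 in Holstein and 9.92 to 10.07 in Brahman. Of these genes 10 of 11 were higher, 8 of them at an unadjusted p under 0.05 in limma. Over all probe sets 7.12% were higher and 6.47% lower at that threshold. The T cell mean was lowest on Holstein 2, as were 4 of the 5 BCL2 probe sets. Within Brahman the orders differed. The T cell mean was lowest on Brahman 2 (9.92), where the first to the fourth BCL2 probe set were highest and the fifth lowest. The B cell list (4 of 8 genes measured) ranged from 9.90 to 10.12 in Holstein and from 10.19 to 10.36 in Brahman, with 2 genes higher and 2 lower. The NK cell list (7 of 7) ranged from 6.99 to 7.19 and from 7.41 to 7.98, with 6 genes higher, 1 lower and a median difference of 0.20, while GZMB alone differed by 2.51. The monocyte list (5 of 8) overlapped at 9.66 to 10.04 in Holstein and 9.25 to 9.69 in Brahman. Of its genes 4 of 5 were lower, with a median difference of -0.54, but 1 was higher and 1 lower at an unadjusted p under 0.05 in limma. The neutrophil list (7 of 12) overlapped at 10.00 to 10.43 and 10.09 to 10.53, with a median difference of -0.02. The lists for eosinophils and basophils (2 of 8), platelets (3 of 6) and red cell precursors (6 of 7) overlapped too, with median differences of 0.18, 0.10 and -0.002. At an unadjusted p under 0.05 in limma, the B cell list had 2 genes higher and 0 lower, the NK cell list 2 and 1. The neutrophil list had 1 and 1, eosinophils and basophils 1 and 0, platelets 0 and 0, red cell precursors 0 and 1. No marker of the T cell, B cell, monocyte or neutrophil list had a mean under the lower quartile of all probe set means, while 1 NK cell, 1 platelet and 2 red cell markers did. Most probe sets lie above that quartile and the brightest of each gene was taken, so this is a weak check of the labelled tissue. The part of cell composition in the CFLAR and BCL2 differences was not tested.

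MCL1, the short-lived survival protein, had a wide spread in Holstein. Its probe set read 10.61, 11.10 and 10.33 in Holstein and 10.51, 10.40 and 10.22 in Brahman. Holstein 2 stood above all other animals, while Holstein 3 lay within the Brahman range. The difference was -0.30 (SE 0.19), it was -0.09 without Holstein 2, and it was 0.11 with the spike-in covariate, so these arrays give no settled direction for MCL1.

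BCL2L1, which encodes BCL-xL, was nearly the same in both breeds. Its probe set read 6.64, 6.73 and 6.51 in Holstein and 6.59, 6.71 and 6.63 in Brahman, a difference of 0.02 (SE 0.09). The 3 animals of each breed lay within the same narrow range.

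BAX, the pore-forming executor at the mitochondrion, varied more among animals than between breeds. Its probe set read 6.88, 6.84 and 7.62 in Holstein and 6.97, 7.43 and 6.65 in Brahman. Holstein 3 and Brahman 2 were high, and the pooled SD of 0.42 exceeded that of 95.8% of all probe sets. The difference of -0.09 (SE 0.26) became 0.16 without Holstein 3 and -0.30 without Brahman 2.

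Within a breed, 8 of the 15 probe sets had a pooled SD above the median of all probe sets (0.15). The pooled SD ranged from 0.05 for the fourth BCL2 probe set to 0.42 for BAX. After BAX, MCL1 varied most among animals of a breed (0.30).

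**Figure D3:**
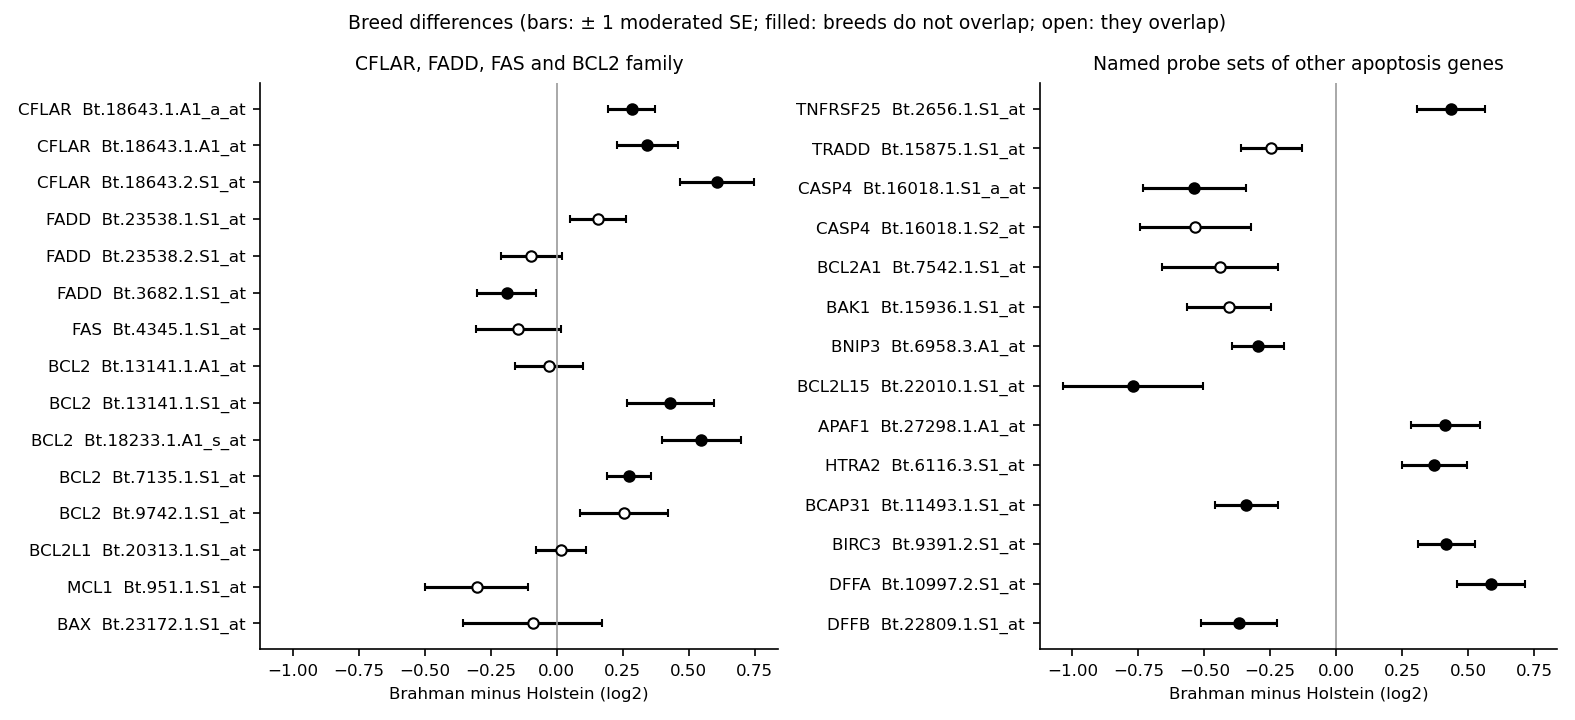
Brahman minus Holstein difference (log2, horizontal axis) for the 15 probe sets of CFLAR, FADD, FAS and the BCL2 family (left) and for named probe sets of other apoptosis genes (right). Whiskers are 1 moderated SE, filled points mark breeds that do not overlap. CFLAR and BCL2 lie mainly right of 0. In the right panel TNFRSF25, APAF1, HTRA2, BIRC3 and DFFA lie right of 0, and the other named probe sets lie left of it.

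The other apoptosis genes showed no common direction. Of 66 listed genes 39 were measured by 59 probe sets, of which 30 were higher and 29 lower in Brahman, with a median of 0.01. Limma called 0 of the 59 over all probe sets, and the smallest adjusted p was 0.157. At an unadjusted p under 0.05, 5 were higher (8.47%, beside 7.12% of all probe sets) and 7 lower (11.9%, beside 6.47%). The count of 7 became 3, 2 and 9 when Holstein 1, 2 or 3 was left out, and 7, 2 and 1 when Brahman 1, 2 or 3 was. With the spike-in covariate the counts were 0 higher and 3 lower.

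Among death receptors and ligands (8 probe sets), 1 was higher and 0 lower at an unadjusted p under 0.05. TNFRSF25, the death receptor DR3 of T cells, read 7.90, 7.64 and 8.08 in Holstein and 8.34, 8.21 and 8.38 in Brahman. The breeds were separate on that probe set, with a difference of 0.43 (SE 0.13, limma adjusted p = 0.243). Other probe sets of TNFRSF25 differed by 0.17 and 0.02. FASLG, the ligand of FAS, averaged 4.54 and 4.19 in Holstein on its probe sets, under the lower quartile (5.08), where signal and background may not be separable.

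Adaptors and kinases of the death receptor complex (7 probe sets) had 0 in either direction at that threshold. TRADD, the adaptor of the tumour necrosis factor receptor, had the smallest p of them with a difference of -0.25 (SE 0.12, limma adjusted p = 0.408). The death effector domain gene DEDD did not overlap between the breeds on its probe sets, at differences of 0.14 and 0.31, and was chosen after its values were seen.

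Of the other caspases (5 probe sets of CASP1, CASP4, CASP6 and CASP9), 4 had differences below 0. At an unadjusted p under 0.05 there were 2 lower, both of CASP4, an inflammatory caspase. CASP4 read, on the first of them, 11.09, 11.31 and 10.49 in Holstein and 10.44, 10.40 and 10.45 in Brahman. Holstein 3 was next to the Brahman animals, whose values were nearly equal, and Holstein 1 and 2 were well above. The difference was -0.54 (SE 0.20, limma adjusted p = 0.308), and on the second it was -0.53 (SE 0.21, limma adjusted p = 0.336).

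Holstein 3 was likewise the Holstein animal nearest to the Brahman animals in other BCL2 relatives. BCL2A1, an inducible survival protein of myeloid cells, read 10.58, 10.51 and 9.78 in Holstein and 10.08, 9.75 and 9.71 in Brahman, a difference of -0.44 (SE 0.22, limma adjusted p = 0.431). BAK1, which forms pores as BAX does, read 8.93, 8.67 and 8.42 in Holstein and 8.50, 8.15 and 8.15 in Brahman, a difference of -0.41 (SE 0.16, limma adjusted p = 0.335). BCL2L15 read 11.46, 11.15 and 10.38 in Holstein and 10.35, 10.36 and 9.97 in Brahman, a difference of -0.77 (SE 0.26, limma adjusted p = 0.291). In all 3 genes Holstein 1 was the highest animal and Holstein 3 the lowest of its breed, and only BCL2L15 was free of overlap, by 0.03. Other BCL2L15 probe sets differed by 0.01 and -0.08, at much lower levels (Holstein means 5.79 and 7.34). The survival members (3 probe sets) had 0 at an unadjusted p under 0.05, the pore-forming members (3) had 1 lower, and the BH3-only and BNIP group (12) had 2 lower. The latter were BCL2L15 and BNIP3, a mitophagy receptor, at -0.30 (SE 0.10, limma adjusted p = 0.274). Other BNIP3 probe sets differed by -0.06 and 0.19.

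In the group of apoptosome and mitochondrial factors (6 probe sets) 3 differences were above 0 and 3 below, of which 2 higher and 1 lower had an unadjusted p under 0.05. APAF1, the scaffold of the apoptosome, differed by 0.41 (SE 0.13, limma adjusted p = 0.261) at levels of 4.37 in Holstein and 4.78 in Brahman, under the lower quartile (5.08). HTRA2, a mitochondrial protease, differed by 0.37 (SE 0.12, limma adjusted p = 0.278) on 1 probe set and by -0.09 on another. BCAP31, an endoplasmic reticulum protein that caspase-8 cuts, differed by -0.34 (SE 0.12, limma adjusted p = 0.295).

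Among inhibitors of apoptosis (8 probe sets) 6 differences were above 0 and 2 below. At an unadjusted p under 0.05 there was 1 higher, that of BIRC3. BIRC3, the ubiquitin ligase cIAP2 that acts beside CFLAR at the tumour necrosis factor receptor, read 10.56, 10.35 and 10.60 in Holstein and 10.88, 11.05 and 10.84 in Brahman. Every Brahman animal was above every Holstein animal, and the difference on this probe set was 0.42 (SE 0.11, limma adjusted p = 0.202). The second BIRC3 probe set differed by 0.15 with overlap. Among the nuclease genes and caspase substrates (7 probe sets) 4 differences were above 0 and 3 below, with 1 higher and 1 lower at an unadjusted p under 0.05. The nuclease inhibitor DFFA differed by 0.59 (SE 0.13, limma adjusted p = 0.157) on 1 probe set and by 0.02 and 0.20 on the others. DFFB, the nuclease that DFFA holds, differed by -0.37 (SE 0.14, limma adjusted p = 0.335) and by -0.03 on a second probe set.

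**Figure D4:**
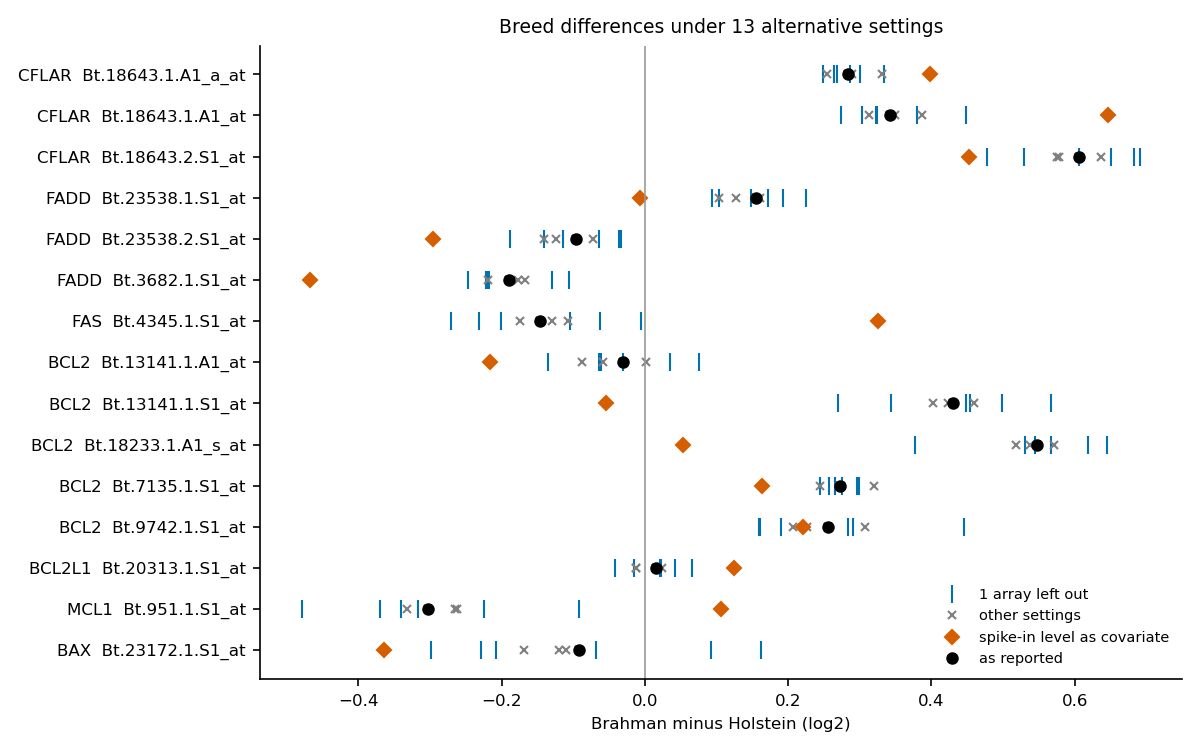
Brahman minus Holstein difference (log2, horizontal axis) of each CFLAR, FADD, FAS and BCL2 family probe set as reported (circles), with 1 array left out (blue ticks), with the spike-in covariate (diamonds) and under the other settings (crosses). All CFLAR points lie right of 0. The diamond of the third BCL2 probe set lies at 0.05 and its circle at 0.55.

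The probe sets most like CFLAR across the 6 arrays were sought among 13289 single-gene probe sets, by Pearson correlation with the first CFLAR probe set, the one of highest mean level. The highest were EMC6 (0.991), PTPN5 (0.991), C24H18orf32 (0.990), GZMB (0.987) and HNRNPLL (0.986). C24H18orf32 averaged 3.40 in Holstein and 3.69 in Brahman, under the lower quartile (5.08), and EMC6, at 5.155 in Holstein, lay not far above it. Granzyme B, the product of GZMB, is a cytotoxic protease, HNRNPLL an RNA-binding protein that controls CD45 splicing in T cells, and PTPN5 a tyrosine phosphatase. The lowest were WDFY4 (-0.989), ARIH2 (-0.989), SH3GLB2 (-0.981), CARS2 (-0.981) and B3GALT4 (-0.978). In all 10 the breeds did not overlap, as for CFLAR, so the breed difference enters each coefficient. In all, 153 probe sets exceeded a correlation of 0.9 and 109 lay under -0.9, so these names are a few of many.

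In the RefSeq table of the ARS-UCD2.0 assembly, CFLAR and CASP8 lie on the same chromosome with 2 protein-coding genes between them. Most probe sets of the genes beside CFLAR were lower in Brahman, some only slightly, and the higher ones were of ORC2 and STRADB. ORC2, 3 genes away and part of the replication origin complex, differed by 0.38 (SE 0.12, limma adjusted p = 0.261) on 1 probe set, without overlap, and by -0.02 on the other. NDUFB3, a respiratory complex I subunit and the direct neighbour of CFLAR, differed by -0.45 (SE 0.12, limma adjusted p = 0.208). PPIL3, 5 genes away, differed by -0.51 (SE 0.13, limma adjusted p = 0.198). The breeds did not overlap on either. NIF3L1 and TRAK2 differed by -0.10 and -0.04, with overlap. STRADB, 5 genes away on the other side, differed by -0.27 on 1 probe set, without overlap, and by 0.12 on the other.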

How the data were processed

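The deposited values are on the log2 scale. According to the submitters' processing notes the authors made these log2 values with RMA, whose version is not stated. RMA subtracts background, forces the arrays to a common distribution and combines the probes of each probe set into 1 value. Of 24128 probe sets, 112 controls were left out, and 18 of these gave the spike-in level. The platform annotation gave 1 symbol for 13292 probe sets, several for 86 and none for 10638. Of the 13292, 13263 matched a RefSeq entry of the ARS-UCD2.0 assembly by Entrez identifier, and 0 symbols differed.

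Brahman was compared with Holstein with limma 3.58.1 in R 4.3.3 (lmFit, eBayes), with no term other than breed. Two-sided tests were used, with Benjamini-Hochberg adjustment across the 24016 probe sets and a call at an adjusted p under 0.05. SE is the moderated standard error. Probe sets were kept apart. Marker lists used the brightest probe set of each gene and the mean of log2 values on an array.

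Genes, lists and tests were chosen with earlier results of these data known. Named beside the 7 genes were, in each group of other apoptosis genes, up to 3 probe sets at an unadjusted p under 0.05 (otherwise the one with the smallest p), and the 5 most and 5 least correlated with CFLAR. FASLG, DEDD and the genes beside CFLAR on its chromosome were named outside that rule. Alternatives were 2 normalisations, omission of dim probe sets, a trended robust prior, array weights, a replicate block, the spike-in covariate and each array left out. The procedure was also run on simulated independent normal values whose spreads were drawn from limma's own prior. Such values hold no array-wide differences in cell composition or spike-in level, so that run cannot speak to them. Precision is limited by 3 arrays per breed, and no detection calls or probe sequences were used here.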

Additional observations from a re-analysis of the deposited data

How the results depend on the processing

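Of 195 recomputed differences of the 15 probe sets, 12 moved by 1 pooled SD or more, and 13 changed sign. All 12 moved with the spike-in covariate, so that fit moved 12 of the 15 probe sets. The total of 195 includes omission of dim probe sets, the trended robust prior and the replicate block, which could not change a difference. The signs of 8 probe sets held throughout, among them the 3 of CFLAR. Where the breeds were separate, as for CFLAR, leaving out an array could not change the sign. The count of higher probe sets without overlap stayed between 5 and 7. The count of lower ones was 0 after a second quantile normalisation and 1 to 2 with each array left out. Over all probe sets limma called 33, against 10 with the replicate block, 0 with the spike-in covariate (2400 at an unadjusted p under 0.05) and 5 to 55 with each array left out. For the other apoptosis genes, the counts at an unadjusted p under 0.05 were 0 higher and 3 lower with the spike-in covariate, and 1 to 9 lower with each array left out. Limma called 0 of these genes in every setting.

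The replicate numbers name different animals, so they were not taken as pairs. Residuals of same-numbered arrays correlated at 0.11, -0.04 and -0.07, which with 3 arrays per breed cannot show whether a batch was shared. The replicate block left every difference between breeds as it was. With 3 arrays per breed, differences near the SE of 0.08 to 0.26 could not be resolved.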
